A study of Mus musculus with 8 samples.

Results

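Bcl11b and the chromatin around it were followed in group 2 innate lymphoid cells (ILC2s), tissue-resident lymphocytes that make type 2 cytokines. The members are all ATAC-seq peak calls with a summit in the Bcl11b gene body or within 1.2 Mb of it on either side, which came to 94 open regions out of 60835 in the whole genome. At 16 h the E47 list held 162 such peak lines and the GFP list 178, and at 4 h the E47 list held 194 and the GFP list 150. Bcl11b (gene ID 58208) lies on the minus strand of mouse chromosome 12, chr12:107910403-108004145 in mm10, a span of 93743 bp in the RefSeq table of GRCm38.p6. Downstream of the gene therefore means lower coordinates, and upstream means higher ones.

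The ILC2s came from the thymus of plck-Id1 mice on the C57BL/6 strain, in which the proximal Lck promoter of T cell progenitors drives Id1, and all groups share this transgene. The cells were stimulated with cytokines (IL-33, IL-25 and IL-7 among them), transduced with a MIGR1 retrovirus for GFP with an E47-ER fusion protein or for GFP alone, sorted for GFP and expanded in the same cytokines. All groups were then treated with 4-hydroxy-tamoxifen, which activates the ER fusion, and harvested. The groups were E47 after 16 h and GFP after 16 h, and E47 after 4 h and GFP after 4 h, with 2 samples each. Group names follow the sample titles and transduction labels, whereas the free-text descriptions give every replicate 1 an empty vector and every replicate 2 the E47-ER one. If those descriptions were right, each list would pool both vectors. No age, sex or number of animals is given, and whether a pair of samples shares a culture is not said.

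Bcl11b encodes a zinc finger transcription factor that T cell progenitors switch on when they commit to the T cell lineage, and mature ILC2s also need it to keep their identity. In T cell progenitors, the gene is switched on with the help of enhancers in the long gene-poor stretch beyond its downstream end, where a noncoding RNA is also transcribed. E47 is an E protein made from Tcf3, which binds E-boxes of the form CANNTG, and Id1 pairs with E proteins and keeps them off DNA. ATAC-seq marks open chromatin by where the Tn5 transposase can insert, so it reports accessible sites and not Bcl11b RNA.

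The authors deposited 1 peak list for each pair of samples. With no replicate spread to set a difference against, no groups were tested, and the values below describe 4 lists. Peak lines of a list that overlapped were joined into regions, and those of different lists that shared at least 1 bp were treated as 1 region. The fold of a region is the authors' enrichment over local background, the highest of its peaks. Its percentile ranks its −log10 p among all regions of the same list, from 0 for the weakest to 100 for the strongest. E47-only regions of a time are those in its E47 list but not in its GFP list, and GFP-only regions the reverse. Absence from a list means that the site did not reach the threshold, not that it was closed. The lists differ in length: at 16 h there were 40649 regions with E47 and 52846 with GFP, and at 4 h 49811 with E47 and 42665 with GFP. Read depth per library is not known here.

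The sequence before the start of Bcl11b is shown because a region open in all 4 lists begins 67 bp beyond it. The window before 4930465M20Rik, a long noncoding RNA gene, is shown as the start in the downstream stretch that lies beside such a region, 143 bp away. Both are the 250 bases before the start on the minus strand, 5′ to 3′, from RefSeq's GRCm38.p6 table, and capitals mark CANNTG matches.
Bcl11b, chr12:108003415-108003664: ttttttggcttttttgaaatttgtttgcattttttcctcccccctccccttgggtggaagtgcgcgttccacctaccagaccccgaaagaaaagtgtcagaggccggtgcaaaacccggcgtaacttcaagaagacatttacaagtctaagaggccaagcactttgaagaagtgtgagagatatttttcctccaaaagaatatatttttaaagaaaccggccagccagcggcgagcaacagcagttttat
4930465M20Rik, chr12:107735489-107735738: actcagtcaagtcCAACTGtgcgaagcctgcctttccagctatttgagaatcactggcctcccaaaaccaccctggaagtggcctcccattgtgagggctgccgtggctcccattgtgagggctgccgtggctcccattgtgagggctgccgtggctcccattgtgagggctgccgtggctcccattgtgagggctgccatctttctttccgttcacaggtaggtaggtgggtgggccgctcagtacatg
CANNTG was searched, and reads the same on both strands. The Bcl11b window held 0 matches and the 4930465M20Rik window 1, a CAACTG that begins 237 bases before the start. Among all 32851 promoter windows of this length, 66.2% held at least 1 match, and among the 38 windows within 1.2 Mb of Bcl11b, 19 did.

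In all, 36 of the 94 regions (38.3%) were called in all 4 lists, against 48.8% of regions in the genome. The gene body held 16 regions, the downstream side 35 and the upstream side 43. E47 at 16 h had 55 of the 94 regions and GFP at 16 h had 73, while E47 at 4 h had 74 and GFP at 4 h had 63. Those counts made up 0.135%, 0.138%, 0.149% and 0.148% of their lists in the same order. Within each time the shares of the vectors were thus alike, and both were somewhat higher at 4 h. Of the regions called in all 4 lists, 8 were in the gene body, 10 downstream and 18 upstream.

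**Figure D1:**
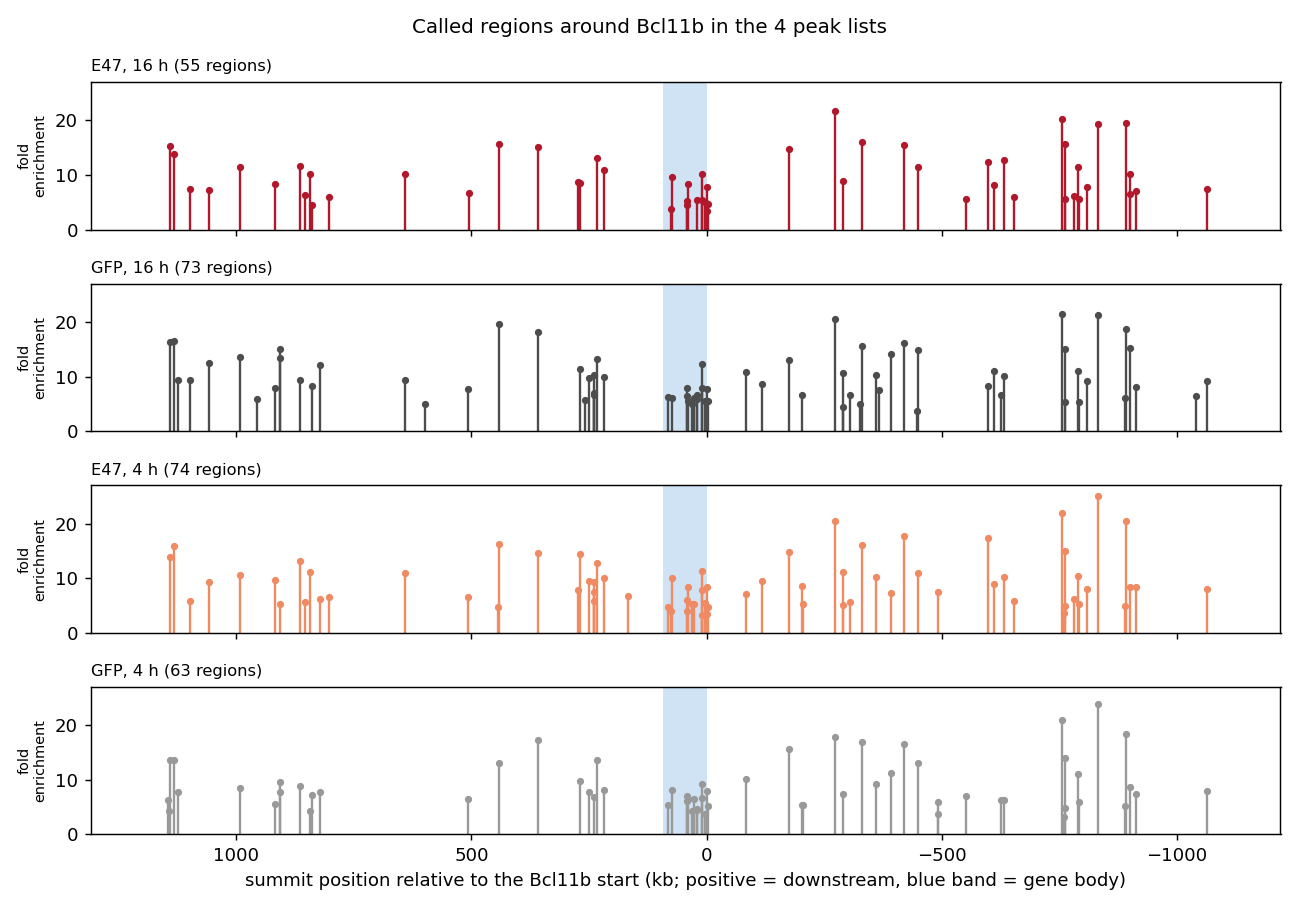
Fold enrichment (vertical axis) of every region called within 1.2 Mb of Bcl11b, by the position of its summit relative to the Bcl11b start in kb (horizontal axis, downstream to the left, gene body shaded), with 1 panel for each of the 4 lists. The highest folds, up to 25.1 in E47 at 4 h, lie upstream among other genes. The 161.2 kb stretch without a call lies between 641.2 and 802.3 kb downstream of the start. Measured from the downstream end of the gene, it lies between 548.2 and 709.3 kb.

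The 2 sides of the gene differ in what they hold. Upstream lie 14 other protein-coding genes, among them Setd3, Ccnk, Evl, Yy1 and Wars. Downstream the table places 1 protein-coding gene model, Gm52008, 10 long noncoding RNA genes and 2 pseudogenes. Ends of protein-coding genes had 11 of the 43 upstream regions and 0 of the 35 downstream ones within 1 kb. Of those 11, 1 lay at the upstream end of Bcl11b itself. All 8 regions above percentile 90 in any list were upstream and called in all 4 lists, and 5 of them lay at such gene ends. The downstream regions reached percentile 81.0 and those of the gene body 82.6.

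Near the start of Bcl11b, accessibility was alike in the 4 lists. The gene's table entry extends 731 bp upstream of the start used for distances in the gene. The region there was counted in the gene body, with its summit 664 bp before the start. The region over the upstream end of the gene's table entry, chr12:108003731-108004330, had a fold of 7.80 in E47 and 7.63 in GFP at 16 h, and of 8.35 in E47 and 8.01 in GFP at 4 h. Its percentiles were 65.7 in E47 and 68.5 in GFP at 16 h, and 72.8 in E47 and 68.4 in GFP at 4 h. Just beyond it, chr12:108004382-108004502 was called in both E47 lists and in neither GFP list. That small region of 121 bp was weak, with a fold of 3.46 (percentile 7.99) at 16 h and of 3.41 (percentile 13.9) at 4 h. A further region 2.2 kb before the gene, chr12:108006208-108006634, was in all 4 lists, with folds of 4.61 in E47 and 5.47 in GFP at 16 h and of 4.78 in E47 and 5.18 in GFP at 4 h.

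Inside the gene, the strongest region lay 10.2 kb after the start, chr12:107992944-107993569. Its fold was 10.1 in E47 and 12.3 in GFP at 16 h, and 11.4 in E47 and 9.23 in GFP at 4 h, so the order of the vectors turned between the times. Its neighbour at 9.7 kb, chr12:107993629-107993913, did the same, with 5.49 in E47 and 7.89 in GFP at 16 h and 7.81 in E47 and 6.62 in GFP at 4 h. These regions were called in all 4 lists, and neither shows a steady difference between vectors.

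Deeper in the gene, 2 regions were stronger in E47 at both times. The region 72.7 kb after the start, chr12:107930488-107931069, had folds of 9.58 in E47 and 6.07 in GFP at 16 h, and of 10 in E47 and 8.03 in GFP at 4 h. Its percentiles were 71.6 in E47 and 37.1 in GFP at 16 h, and 73.5 in E47 and 53.0 in GFP at 4 h. The region 38.7 kb after the start, chr12:107964249-107965293, had folds of 8.36 in E47 and 5.52 in GFP at 16 h, and of 8.42 in E47 and 6.43 in GFP at 4 h. Its percentiles were 64.6 in E47 and 34.9 in GFP at 16 h, and 67.5 in E47 and 43.4 in GFP at 4 h. In both regions each E47 value stood above each GFP value. At 16 h, their E47 folds were 1.58 and 1.51 times those of GFP. These were the 2 regions of 44 called in both 16 h lists whose fold was at least 1.5 times higher in E47, against 1.28% of such regions in the genome. At 4 h the ratios were 1.2 and 1.3. Both stood low by fold in the GFP list at 16 h, at fold percentiles of 22.1 and 16.6, and at 54.8 and 45.3 in the E47 list. With lists cut to the same length by fold they drop out of that GFP list, so 0 regions of both lists pass the ratio there, while their folds stay as given.

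A neighbouring pair, 41.3 and 42.1 kb after the start, had lower folds in E47 at both times. The region chr12:107961850-107962267 had folds of 5.21 in E47 and 7.84 in GFP at 16 h, and of 5.95 in E47 and 7.08 in GFP at 4 h. The region chr12:107961151-107961362 had folds of 4.51 in E47 and 6.38 in GFP at 16 h, and of 3.92 in E47 and 6.15 in GFP at 4 h. By percentile, the region at 41.3 kb stood at 36.3 in E47 and 57.9 in GFP at 16 h, but at 49.4 and 50.1 at 4 h. The region at 42.1 kb stood at 22.3 in E47 and 44.3 in GFP at 16 h, and at 15.4 and 38.5 at 4 h. This pair lies within 4 kb of the region at 38.7 kb that was stronger in E47, so opposite differences in fold stood side by side in the gene.

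At 4.5 kb after the start, chr12:107998829-107999026 was in all 4 lists, with folds of 5.08 in E47 and 5.46 in GFP at 16 h, and of 5.38 in E47 and 3.66 in GFP at 4 h. The other 8 gene body regions, none above percentile 45.1, were each missing from at least 1 list. GFP had the same 13 regions at both times, while E47 had 10 at 16 h and 13 at 4 h, 9 of them shared. At 75.3 kb after the start, chr12:107927988-107928406 was called with E47 alone, at folds of 3.71 at 16 h and 4.04 at 4 h. At 81.6 kb, chr12:107921318-107922103 was called with GFP alone, at folds of 6.33 and 5.42, and at 19.9 kb chr12:107983267-107983649 likewise, at 5.87 and 4.42. The gene body regions at 27.5 and 31.8 kb were missing from E47 at 16 h only. With 13 regions in GFP at both times, Bcl11b stood by raw count among the genes richest in calls inside their bodies. Of 21887 protein-coding genes, 0.991% had as many or more in GFP at 16 h and 0.530% in GFP at 4 h. For its 10 and 13 regions in E47 the shares were 1.02% at 16 h and 0.918% at 4 h. Gene length was not allowed for, and Bcl11b spans 93743 bp.

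**Figure D2:**
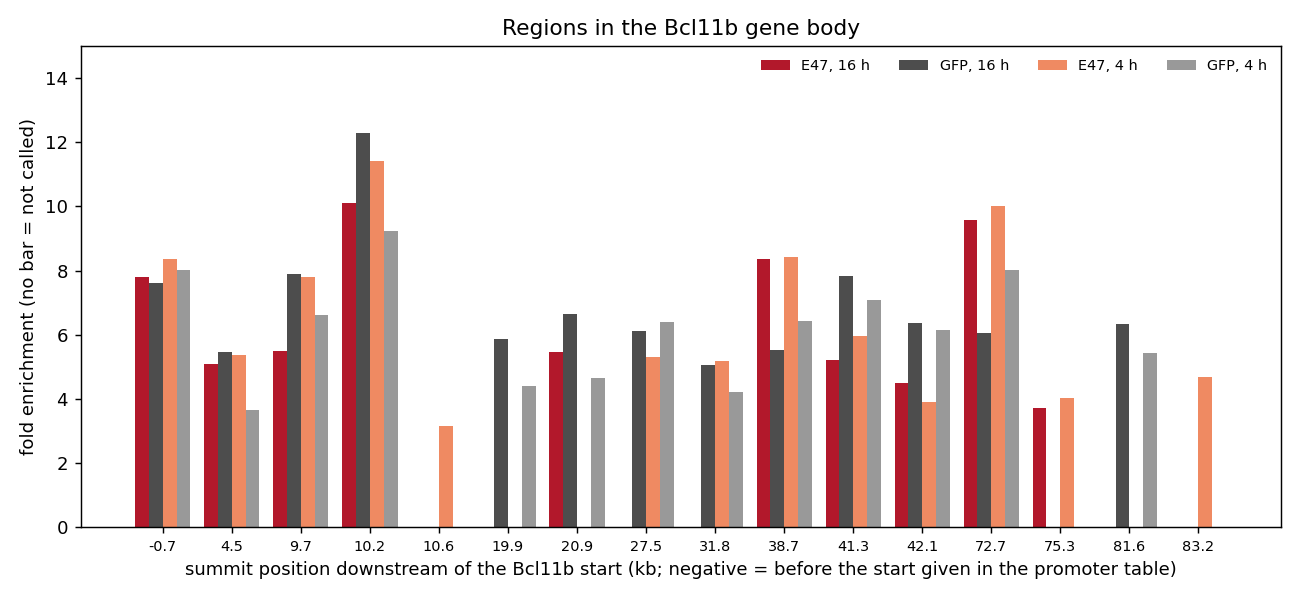
Fold enrichment (vertical axis) of the 16 regions in the Bcl11b gene body in the 4 lists. They are ordered by the position of the summit relative to the start in kb (horizontal axis, negative before the start). A missing bar means that the region was not called, and the E47 bars stand above the GFP bars of the same time at 38.7 and 72.7 kb and below them at 41.3 and 42.1 kb.

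Downstream of the gene, regions came in groups separated by empty stretches. The first 300 kb held 11 regions, the next bin of 300 kb 6, the one to 900 kb 11 and the last 7. No region was called between 548.2 and 709.3 kb, the widest gap at 161.2 kb. The bin of 600 to 900 kb held 7 regions for E47 and 8 for GFP at 16 h, and 8 for E47 and 8 for GFP at 4 h. In the first 300 kb, in contrast, E47 had 5 and GFP 9 at 16 h, and E47 had 10 and GFP 6 at 4 h. Within each time, the longer list had more.

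**Figure D3:**
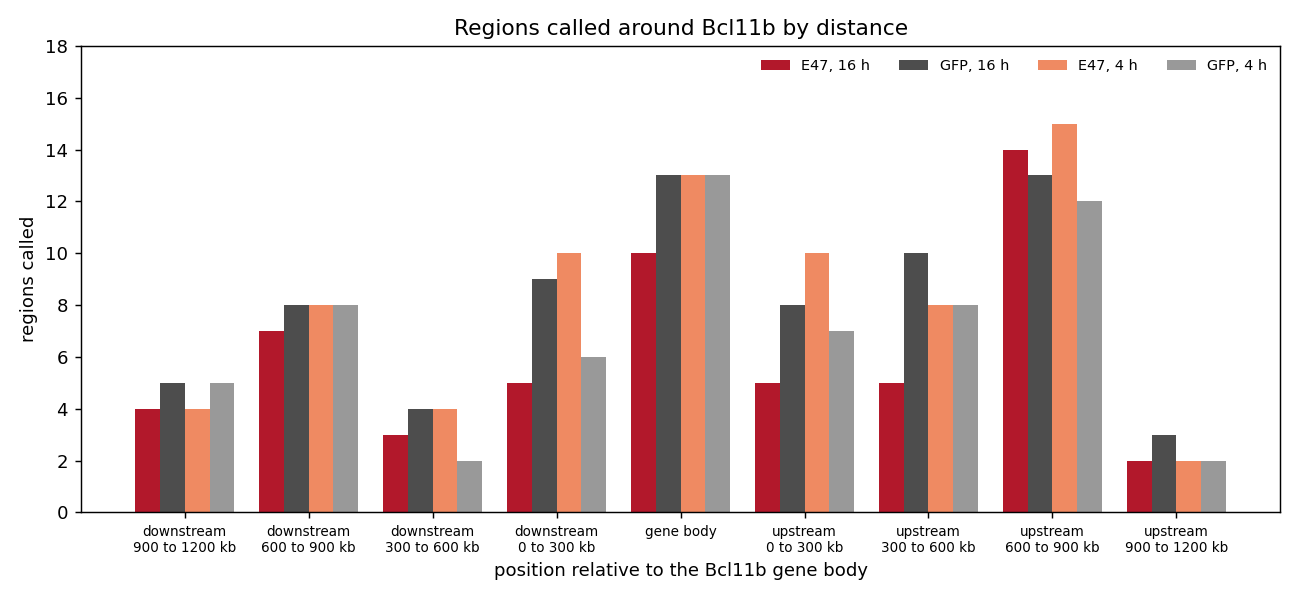
Number of regions called in each of the 4 lists (bars, vertical axis) in 300 kb bins on both sides of Bcl11b and in its gene body (horizontal axis, downstream to the left). E47 at 16 h has the fewest regions from 0 to 300 kb on either side, with 5 each, and 7 of the 11 regions from 600 to 900 kb downstream.

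The strongest downstream regions were open in all lists. At 349.0 kb beyond the gene, chr12:107561052-107561753 had folds of 15.7 in E47 and 19.6 in GFP at 16 h, and of 16.3 in E47 and 13.0 in GFP at 4 h. At 264.8 kb, inside the noncoding RNA gene Gm33236, chr12:107645180-107645900 had 15.1 in E47 and 18.2 in GFP at 16 h, and 14.7 in E47 and 17.3 in GFP at 4 h. At 139.8 kb, chr12:107770203-107770992 had 13.2 in E47 and 13.2 in GFP at 16 h, and 12.8 in E47 and 13.6 in GFP at 4 h. Of these 3 the last differed least between the lists, and all of them kept percentiles above 65 throughout. At 1047.4 kb, chr12:106862611-106863298 was as strong, with 15.3 in E47 and 16.3 in GFP at 16 h, and 13.9 in E47 and 13.7 in GFP at 4 h. Its neighbour inside 1700013N06Rik at 1038.7 kb, chr12:106871260-106872195, had 13.8 in E47 and 16.5 in GFP at 16 h, and 15.9 in E47 and 13.7 in GFP at 4 h. Strong open sites thus lay more than 1 Mb beyond the gene in every list.

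Beside the start of 4930465M20Rik, the region 175.7 kb downstream, chr12:107734430-107735346, had folds of 8.62 in E47 and 11.3 in GFP at 16 h, and of 14.4 in E47 and 9.70 in GFP at 4 h. It was the strongest in E47 at 4 h and the weakest in E47 at 16 h. Within the same noncoding gene at 180.9 kb, chr12:107729136-107729820 was called in E47 alone, with a fold of 8.65 (percentile 32.9) at 16 h and of 7.91 (percentile 25.1) at 4 h. At 126.3 kb, chr12:107783584-107784354 had 11 in E47 and 9.87 in GFP at 16 h, and 9.99 in E47 and 8.20 in GFP at 4 h. Between 146.0 and 157.6 kb lay 4 regions, of which E47 had 0 and GFP 4 at 16 h, and E47 had 4 and GFP 2 at 4 h.

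The group of 11 regions between 700 and 900 kb, which spans 189.5 kb, held regions that differed widely between the vectors. At 750.1 kb beyond the gene, 843.1 kb from its start, chr12:107159795-107160636 had a fold of 10.1 in E47 and was not called in GFP at 16 h, and had 11.1 in E47 and 4.18 in GFP at 4 h. Its percentiles were 57.8 in E47 at 16 h, and 63.7 in E47 and 0.584 in GFP at 4 h, so where GFP had a call it was among the weakest of its list. Both E47 lists gave the same interval of 842 bp with 5 summits, the highest at positions 107160345 and 107160347. The GFP call at 4 h covered 505 bp with 3 summits, the highest at position 107160349. Of the 11 regions of the locus that were E47-only at 16 h, this was the 1 above the median of its list. In the genome, 220 of 4553 E47-only regions at 16 h were above it. Out of all regions, that class made up 1.06% of the locus and 0.362% of the genome. At 4 h the fold of the region 750.1 kb away was 2.65 times higher in E47. Of regions called in both 4 h lists in the genome, 4.41% were at least 1.5 times higher in E47.

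Regions on either side of it also leaned to E47. At 761.8 kb, chr12:107148400-107148871 was called in E47 alone, with a fold of 6.27 (percentile 33.1) at 16 h and of 5.59 (percentile 25.9) at 4 h. At 771.2 kb, chr12:107138729-107139563 was in all 4 lists, with folds of 11.6 in E47 and 9.46 in GFP at 16 h, and of 13.1 in E47 and 8.87 in GFP at 4 h. That region was also wider with E47, at 639 bp in E47 and 367 bp in GFP at 16 h, and 835 bp in E47 and 382 bp in GFP at 4 h. At 709.3 kb, chr12:107200877-107201270 was called in E47 alone and was weak, with folds of 5.94 at 16 h and 6.47 at 4 h.

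Other regions of the group leaned to GFP, a pair of them farther from the gene than those above and a pair between them. At 814.7 kb, inside the noncoding RNA gene Gm16086, chr12:107095571-107095939 was called in GFP alone, with a fold of 15.1 (percentile 61.1) at 16 h and of 7.68 (percentile 22.8) at 4 h. Beside it at 814.0 kb, chr12:107096175-107096567 was not called in E47 and had a fold of 13.4 in GFP at 16 h, and had 5.34 in E47 and 9.56 in GFP at 4 h. At 745.2 kb, chr12:107164888-107165260 had 4.51 in E47 and 8.22 in GFP at 16 h, and was not called in E47 and had 7.28 in GFP at 4 h. At 729.7 kb, chr12:107180547-107180850 was not called in E47 and had 12.1 in GFP at 16 h, and had 6.15 in E47 and 7.68 in GFP at 4 h. All 4 of these had a lower value or no call in E47 at each time.

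Among the remaining regions of the group, one at 823.9 kb in Gm16086, chr12:107086321-107086674, also had higher folds in E47 at both times. They were 8.27 in E47 and 7.98 in GFP at 16 h, and 9.71 in E47 and 5.62 in GFP at 4 h. The region at 898.8 kb, chr12:107011391-107011876, was also in all 4 lists, and the one at 863.2 kb was called in GFP at 16 h alone. In all, 3 of the 11 regions were in every list. Low folds take few values in these lists: in GFP at 4 h, 3 regions of the locus shared a fold of 7.68 and a −log10 p of 25.2, so folds at this level come in coarse steps. Which of these regions corresponds to a known Bcl11b enhancer was not tested.

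**Figure D4:**
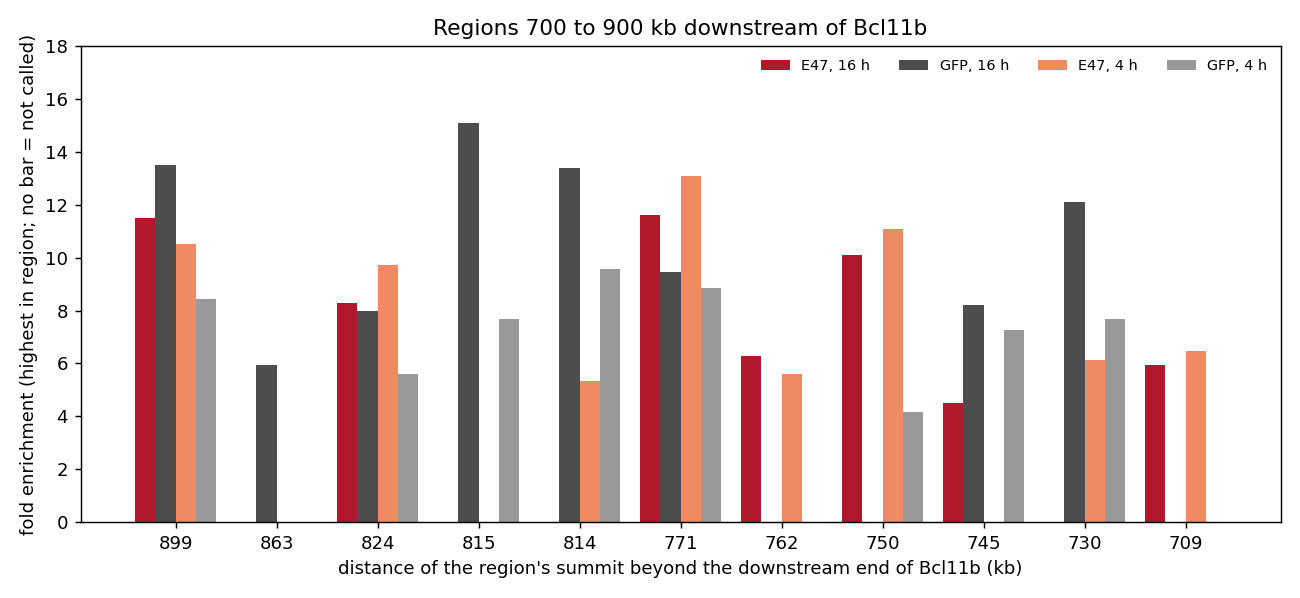
Fold enrichment (vertical axis) in the 4 lists for the 11 regions between 700 and 900 kb beyond the downstream end of Bcl11b, ordered by distance in kb (horizontal axis, farthest on the left). The E47 bars dominate at 771, 762, 750 and 709 kb, and the GFP bars at 815, 814, 745 and 730 kb. At 824 kb the E47 bars are also the higher ones at both times, by little at 16 h.

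Farther out, 7 regions lay beyond 900 kb. At 1030.1 kb, chr12:106879922-106880417 was called in GFP alone, with folds of 9.41 at 16 h and 7.68 at 4 h. At 965.5 kb, chr12:106944608-106945189 had 7.26 in E47 and 12.4 in GFP at 16 h, and 9.22 in E47 and no call in GFP at 4 h. The farthest region, 1053.2 kb away, chr12:106857066-106857285, was called in GFP at 4 h alone, with a fold of 6.22. The first region beyond the 1.2 Mb limit, at 1260.8 kb, was in all 4 lists, with folds of 7.56 in E47 and 17.4 in GFP at 16 h, and of 11.5 in E47 and 11.7 in GFP at 4 h.

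Upstream, most of the strongest regions lay at ends of neighbouring genes and were alike in the lists. The region shared by Setd3, a histidine methyltransferase of actin, and Ccnk, the gene of cyclin K, chr12:108178619-108179922, had folds of 14.8 in E47 and 13.1 in GFP at 16 h, and of 14.8 in E47 and 15.7 in GFP at 4 h. The region at Yy1, a zinc finger factor that binds promoters and enhancers, chr12:108792184-108793386, had 11.5 in E47 and 11 in GFP at 16 h, and 10.4 in E47 and 11 in GFP at 4 h. Those in Ccdc85c (chr12:108274746-108275928), near Slc25a29 (chr12:108835394-108836618) and in the noncoding gene Gm33628 (chr12:108757497-108758287) also kept percentiles above 90 in every list. The farthest upstream region, 1063.9 kb away in Begain (chr12:109067588-109068261), was in all 4 lists with folds between 7.43 and 9.24, and the first beyond the limit lay at 1389.9 kb.

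Evl, which encodes an actin-binding protein, showed calls of both kinds. It held chr12:108657455-108657648, called in E47 alone with folds of 5.92 at 16 h and 5.89 at 4 h, whose summit lay 1027 bp from the microRNA gene Mir342. It also held chr12:108629522-108629967, called in GFP alone with folds of 6.61 at 16 h and 6.29 at 4 h. At 631.5 kb, chr12:108635557-108636401 was stronger in E47, with 12.7 in E47 and 10.1 in GFP at 16 h, and 10.3 in E47 and 6.35 in GFP at 4 h. The region 7559 bp from Yy1, chr12:108785030-108785585, was called in E47 alone with folds of 6.12 at 16 h and 6.15 at 4 h. Both E47-only regions were weak, with percentiles from 6.13 to 9.65. Also in Evl, at 596.9 kb, chr12:108600784-108601660 had folds of 12.4 in E47 and 8.35 in GFP at 16 h, and of 17.4 in E47 and no call in GFP at 4 h.

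Counted over the whole locus, 7 of 94 regions (7.45%) were E47-only at both times, against 3.43% in the genome, and 5 (5.32%) were GFP-only at both times, against 4.56%. With peaks of a stricter irreproducible discovery rate, 0.01 or less, 2 of 70 regions (2.86%, against 3.30% in the genome) were E47-only at both times and 9 (12.9%, against 4.44%) GFP-only. The higher number with E47 was thus not kept. The 7 E47-only regions lay 1 in the gene, 3 downstream and 3 upstream, with percentiles of 4.64 to 33.1 and folds of 3.41 to 8.65. The 5 GFP-only regions lay 2 in the gene, 2 downstream and 1 upstream, with percentiles of 2.04 to 61.1 and folds of 4.42 to 15.1, and all 5 had a higher fold at 16 h than at 4 h.

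At 16 h, 11 regions (11.7%) were E47-only, against 7.48% in the genome, and 29 (30.9%) were GFP-only, against 26.4%. At 4 h, 22 regions (23.4%) were E47-only, against 19.5%, and 11 (11.7%) were GFP-only, against 8.37%. With all lists cut to the same length by fold, 17 of 83 regions (20.5%, against 16.3% in the genome) were E47-only at 16 h and 19 (22.9%, against 18.1%) GFP-only, and by −log10 p, 18 of 79 (22.8%, against 15.1%) were GFP-only. Each of these shares stood above that of the genome. Cut by −log10 p, the E47-only share at 16 h was nearer to it, 15.2% against 14.5%. With the stricter rate it was below, with 3 of 70 regions (4.29%, against 5.80%). A smaller share of the locus was in all 4 lists (38.3%, against 48.8%), and its part in this was not tested. Of the 29 regions GFP-only at 16 h, 6 lay above the median of that list (6.38% of the locus, against 2.88% in the genome), 4 of them downstream. A set of 12 regions (12.8%, against 6.67%) was missing from E47 at 16 h and present in the other 3 lists. In the same way 6 regions (4.29% in the genome) were missing from GFP at 4 h alone, 2 (1.24%) from E47 at 4 h alone, and 1 (1.44%), the one 750.1 kb away, from GFP at 16 h alone.

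Calls of a single list made up 16 of the 94 regions, against 22.3% in the genome. E47 gave 2 of them (2.28% in the genome) and GFP 7 (10.6%) at 16 h, and E47 gave 4 (7.21%) and GFP 3 (2.24%) at 4 h. Calls in GFP at 16 h and E47 at 4 h alone numbered 5 (4.57%), and the reverse 1 (0.334%), at the start of Evl.

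Folds were then set side by side where both lists of a time had a call. The median ratio of E47 over GFP was 0.919 over 44 regions at 16 h and 1.07 over 52 regions at 4 h, near the values of all regions, 0.939 and 1.07. At 16 h, 2 regions were at least 1.5 times higher in E47, both in the gene body, and 4 were so in GFP (8.45% of regions in the genome). At 4 h, 4 were higher in E47 and 3 in GFP (1.36%). Among the 36 regions in all 4 lists, 11 had a higher fold in E47 at both times (27.4% in the genome) and 6 in GFP (22.5%). For the other 19 the order of the vectors turned between the times. None of the 36 passed 1.5 at both times in either direction, where 0.492% (E47) and 0.421% (GFP) of such regions did so in the genome.

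**Figure D5:**
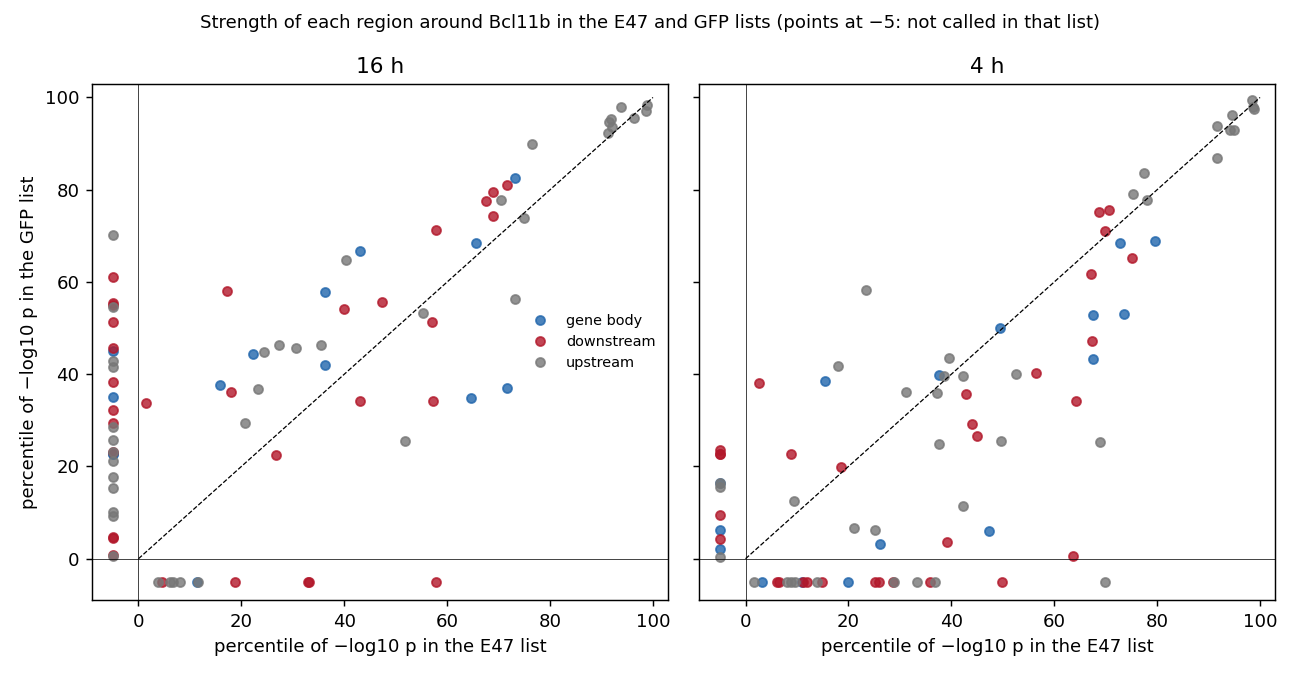
Percentile of each region's −log10 p within the E47 list (horizontal axis) and within the GFP list (vertical axis) at 16 h (left) and 4 h (right), coloured by side of Bcl11b, with points on the lower or left edge where that list had no call. Upstream regions fill the upper right corner, and the downstream point on the lower edge at 57.8 at 16 h is the region 750.1 kb away, which lies at 63.7 and 0.584 at 4 h.

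With E47, 5 regions were in the 16 h list and missing at 4 h (4.93% in the genome), and 24 the reverse (19.7%). With GFP, 18 were in the 16 h list and missing at 4 h (20.5%), and 8 the reverse (5.29%), none of either kind in the gene body. No region was called in both 16 h lists alone (1.08% in the genome), and 3 were called in both 4 h lists alone (1.28%), all upstream.

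Genes tied to Bcl11b were counted with 100 kb on either side. Of the 4 genes known to act on Bcl11b in T cell progenitors (Tcf7, Gata3, Runx1 and Notch1), 2 held E47-only calls at both times and 4 held GFP-only ones, which made 3 and 7 of 95 regions. Tcf7, the TCF-1 gene, had 13 regions in E47 and 11 in GFP at 16 h, and 13 in E47 and 9 in GFP at 4 h. The other regulators had fewer regions with E47 than with GFP at 16 h. The whole E47 list was also shorter at that time, with 40649 regions against 52846. The zinc finger factor gene Gata3 had 11 in E47 and 16 in GFP at 16 h, and 16 in E47 and 15 in GFP at 4 h. Runx1, a Runt factor gene, had 19 in E47 and 33 in GFP at 16 h, and 28 in E47 and 24 in GFP at 4 h. The receptor gene Notch1 had 10 in E47 and 16 in GFP at 16 h, and 14 in E47 and 13 in GFP at 4 h. Of the 9 genes described that are known to be under Bcl11b in T cells or ILC2s, 4 held E47-only calls and 3 GFP-only ones, which made 7 and 4 of 183 regions. Rora, which ILC2 development needs, gave 4 of the 7 E47-only and 2 of the 4 GFP-only regions. Gfi1, which Bcl11b sustains in ILC2s, Id2, which inhibits E proteins, and the IL-2 receptor gene Il2rb had 1 E47-only and 0 GFP-only regions each. Nfil3, a factor gene of early innate lymphoid cells, and Il1rl1, the IL-33 receptor gene, had 0 E47-only and 1 GFP-only each. Ahr, Zbtb16 and Kit had 0 of either kind. Over the 13 genes, 10 of 278 regions (3.60%) were E47-only and 11 (3.96%) GFP-only, near the genome's shares of 3.43% and 4.56%. This sum joins lists whose small counts leaned opposite ways. The regulators had more GFP-only than E47-only regions, and the genes under Bcl11b the reverse. Single genes weighed heavily, as Runx1 gave 3 of the 7 GFP-only regions of the regulators. Rora gave 4 of the 7 E47-only regions of the genes under Bcl11b. Whether the lists differ from each other or from the genome was not tested.

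The genes whose counts of regions in the body over the 4 lists lay nearest to those of Bcl11b, by Euclidean distance, were Iqsec1 (distance 1), Apbb1ip (1.41), Nbea (1.41), Ninj2 (1.73) and Oxr1 (1.73), with Rere at the same distance as the last. Iqsec1 differed by 1 region, with 10 in E47 and 14 in GFP at 16 h and 13 in E47 and 13 in GFP at 4 h.

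The labelled cell type was examined in regions inside or within 5 kb of marker genes. The share of all genes with a region so placed was not counted, so these counts alone cannot set cell types apart. All 12 ILC2 markers had a region in every list. Of 11 T cell markers, 8 in E47 and 9 in GFP had one at 16 h, and 9 in E47 and 8 in GFP at 4 h, with Cd8a and Cd8b1 at 0. Between 3 and 4 of the 5 B cell markers had one, with Ms4a1 at 0, as had 3 of 5 myeloid markers, with Lyz2 and Csf1r at 0, and 1 of 4 mast cell markers, with Mcpt4, Ms4a2 and Fcer1a at 0. Of 4 ILC3 markers, Il23r had 1 region in both E47 lists and none in either GFP list, and Il22, Il17a and Il17f were at 0. Such calls were not particular to Il23r, as 3.43% of regions in the genome were E47-only at both times. The ILC2 markers Rora and Thy1 held 3 and 2 of them. Rora, Il1rl1, Areg and Arg1 held 1 region each that was GFP-only at both times. Whether any of these calls is tied to Bcl11b was not tested.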

How the data were processed

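ATAC-seq was carried out on 8 samples in 4 groups of 2. The tools named by the submitters' processing notes are MACS2, Bowtie2, DiffBind and cutadapt, with build mm10, and their versions, roles and settings are not given. The authors deposited 1 narrowPeak list per pair of samples, filtered by irreproducible discovery rate (conservative set, per the labels), with a score from 540 to 1000 per peak. The deposited fold is a ratio over local background, and the deposited −log10 p is at least 2.00 in each list. Neither is corrected for depth between lists, and −log10 p grows with depth.

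Regions were placed by their strongest summit, and their genes by the RefSeq table of GRCm38.p6, which gives no exons. Named regions were the one over the upstream end of the gene's table entry and the strongest by mean percentile. The latter were 5 in the gene, 10 downstream and 5 upstream. All regions called by 1 vector at both times and the farthest on each side were named too. Others, among them the one 750.1 kb away, the sequences shown, and the 1.5-fold comparison were chosen after their values were seen. The members and gene lists were chosen with earlier results of these data known. One gene of these lists is not reported here and was left out of their counts. No genome sequence was used. Alternatives are given in the closing section. The code was tested on simulated lists. Python 3.11.15, pandas 2.3.3, numpy 2.4.6 and matplotlib 3.10.9 were used.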

Additional observations from a re-analysis of the deposited data

Results flagged for a closer look

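Around Bcl11b the vectors were balanced in opposite directions at 16 h and 4 h. The number of E47-only regions less that of GFP-only regions was -18 at 16 h and 11 at 4 h, against -11518 and 6768 in the genome. With 1 list a group this was not tested, and it moves with the lengths of the lists.

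Single regions also turned round. The locus held 5 regions (5.32%, against 4.57% in the genome) that were GFP-only at 16 h and E47-only at 4 h, and 1 (1.06%, against 0.334%) that was E47-only at 16 h and GFP-only at 4 h. The last lay at the start of Evl, chr12:108554499-108555465, with folds of 5.60 in E47 at 16 h and 6.93 in GFP at 4 h. These were not tested either.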

How the results depend on the processing

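No paired analysis was possible because each group had 1 list for its 2 samples, and no replicate could be left out. Of 90 counts for the locus under the alternatives, 60 stayed within 1.5 times the reported count. No count moved with an overlap of 50% of the shorter region or with lines up to 200 bp apart joined. With single summits in place of regions, the lists had 162 and 178 summits (E47 and GFP, 16 h) and 194 and 150 (4 h), 40 and 61 of one vector at 16 h, 62 and 20 at 4 h, 18 and 9 at both times, and 96 in all lists. Genome shares were not counted for these summits or for 1.5-fold ratios under the alternatives. With peaks at a rate of 0.01 or less, E47-only regions numbered 3 at 16 h (4.29%, against 5.80% in the genome). At both times, 2 were E47-only (2.86%, against 3.30%) and 9 GFP-only (12.9%, against 4.44%). The 1.5-fold counts at this rate were 2 (GFP, 16 h), 1 (E47, 4 h) and 1 (GFP, 4 h). With lists cut to 40649 regions by −log10 p, there were 13 E47-only regions at 4 h (16.5%, against 12.2% in the genome). At 16 h there were then 18 GFP-only regions (22.8%, against 15.1%). The 1.5-fold counts at 4 h were 2 (E47) and 1 (GFP). Cut by fold, there were 17 E47-only (20.5%, against 16.3% in the genome) and 19 GFP-only regions (22.9%, against 18.1%) at 16 h. At 4 h there were then 19 GFP-only regions (22.9%, against 12.7%). The 1.5-fold counts were 0 (E47, 16 h, as both regions leave the GFP list) and 1 (GFP, 4 h). At a ratio of 1.2, chosen after the data were seen, the counts were 5 (E47) and 15 (GFP) at 16 h and 18 (E47) and 7 (GFP) at 4 h. The causes were not tested, though shorter lists hold fewer regions by construction. The region 750.1 kb away was E47-only at both times with the stricter rate and with lists cut by −log10 p. Its weak GFP call at 4 h had a score of 612, below the cut of 830, and a percentile of 0.584. Both filters therefore drop that call by construction, and the outcome adds no support. The E47-only region at 761.8 kb and the GFP-only regions at 814.7 and 1030.1 kb kept their calls under all 5 alternatives for single regions. Others, such as the weak E47-only region just upstream of Bcl11b, were lost in some, and none turned round. Depth per library is not known, which limits every missing call.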
